A study of Mus musculus with 4 samples.

Results

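The genes described here are 35 mouse genes of cholesterol synthesis, sterol sensing and transport, and fatty acid synthesis, chosen by name and all found among the 23107 genes of the deposited tables. They fall into 17 genes of the cholesterol synthesis chain, 5 of sterol sensing, 7 of sterol transport and its control by liver X receptors, and 6 of fatty acid synthesis. The series measured RNA in dental follicle cells, the mesenchymal cells around a developing tooth, sorted for the red fluorescent protein tdTomato from lower molars of mice at postnatal day 8. The labels call the sorted cells PTHrP+, after the parathyroid hormone-related protein that marks follicle progenitors. Both groups carried the reporter and had tamoxifen at postnatal day 3. The cHet group was conditionally heterozygous for Ptch1, written Ptch1(+/-), and the cKO group was its conditional knockout, written Ptch1(-/-), with 2 libraries each. No source used here gives the driver of the recombinase or the number of animals behind a library.

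Cells build cholesterol from acetyl-CoA through mevalonate, squalene and lanosterol, and the same acetyl-CoA feeds the synthesis of fatty acids. The transcription factors SREBP1 and SREBP2, encoded by Srebf1 and Srebf2, induce most enzymes of both routes. When sterols are plentiful the Insig proteins hold the escort protein Scap, and with it the SREBPs, in the endoplasmic reticulum. Liver X receptors respond to oxysterols and induce genes of sterol export. Sterols also matter to the hedgehog pathway: cholesterol and some oxysterols bind and activate Smoothened, and Ptch1, a protein related to the lysosomal sterol transporter Npc1, keeps Smoothened off.

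The columns of the tables number the libraries of each group from 0 and the sample titles from 1, so the column names are used here (cHet_0, cHet_1, cKO_0, cKO_1). Values are scaled counts, which are reads per gene after the authors' scaling of each library, with totals of 69361760 to 71228342. Levels of different genes are compared only in FPKM, which is relative to transcript length, and the length correction differed between libraries numbered 0 and 1. Library cHet_1 stood apart, with 9850 genes at 1 FPKM or more against 11355 to 12360 in the other 3. The targeted gene Ptch1, itself a hedgehog target, was higher in both cKO libraries (22420 and 23341) than in both cHet libraries (12867 and 5438). A value over the whole gene does not show whether an exon was lost, so it checks no label. The hedgehog targets Gli1 (4132 and 3350 against 6388 and 6955) and Hhip (62357 and 60651 against 175453 and 160516) were likewise higher in both cKO libraries. In FPKM, Ptch1 and Gli1 also separated, while Hhip overlapped at 101 and 25.5 against 273 and 84.1. All 14 dental follicle markers examined were at 1 FPKM or more in every library, Pthlh and Col1a1 among them.

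Both cKO libraries lay below both cHet libraries for 11 of the 35 genes and above them for 1. The 11 were Mvk, Fdps, Fdft1, Lss, Cyp51, Insig1, Srebf1, Scd1, Scd2, Acly and Elovl6, and the 1 was Ebp. That is 31.4% of the members lower and 2.86% higher. Over the 14297 genes tested the groups separated in the same way for 14.2% lower and 18.0% higher in cKO. Among the 8963 genes that averaged 1000 scaled counts or more, the shares were 16.5% and 18.0%, and among the 29 members at that level they were 34.5% and 3.45%. No member passed the test across all genes: limma with Benjamini-Hochberg adjustment called 0 members higher and 0 lower, beside 0.0% of all genes in each direction, with adjusted p no lower than 0.913. An unadjusted limma p under 0.05 was reached by 2 members in the lower direction, Insig1 and Scd1, and by 0 in the higher, beside 1.49% and 1.54% of all genes. With 2 libraries a group, the error of most single genes was wide (median standard error 0.742 on the log2 scale over all genes tested). In bulk samples fewer cells of a type and less RNA per cell cannot be told apart. The plot of all 35 genes by library shows where the groups separate and where a single library stands out.

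**Figure D1:**
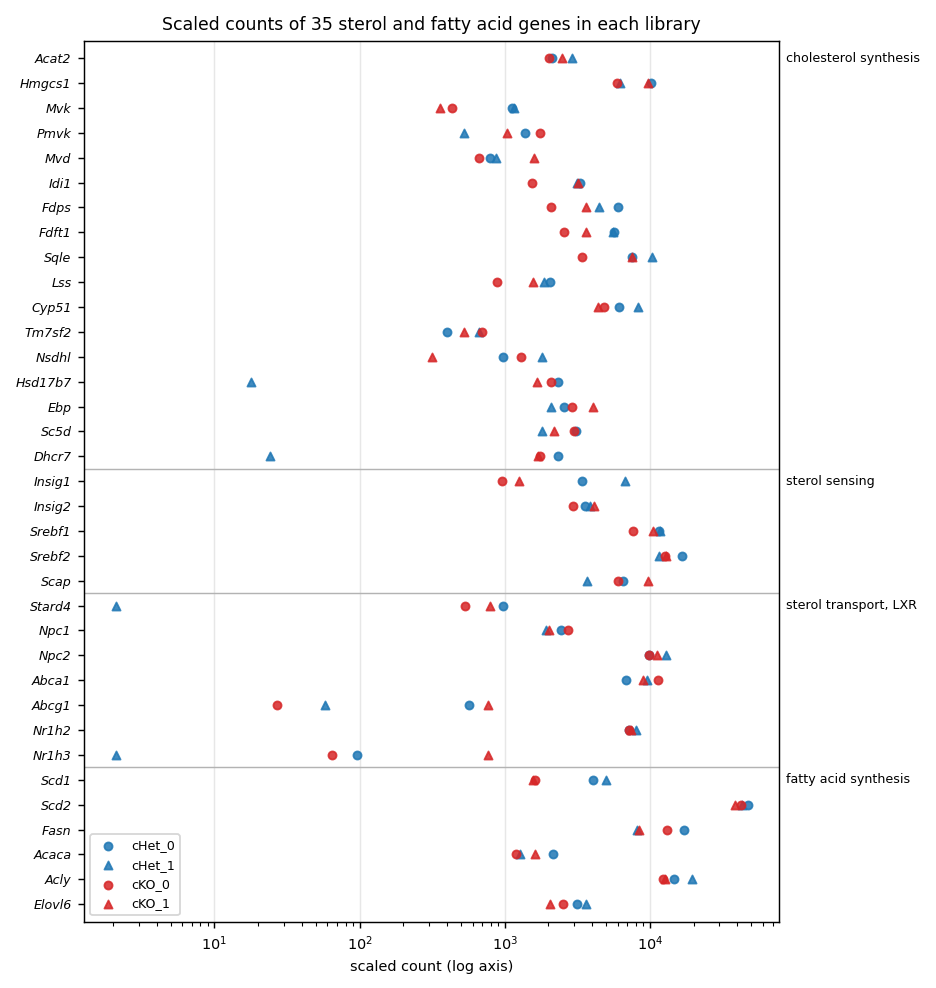
Scaled counts (log axis) of the 35 genes, 1 row per gene in pathway order, with blue for the cHet and red for the cKO libraries, and circles for libraries numbered 0 and triangles for those numbered 1. Insig1, Mvk and Scd1 have both red points well to the left of both blue points, and Hsd17b7, Dhcr7, Stard4 and Nr1h3 have the cHet_1 point far to the left of the other 3.

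The member with the lowest p was Insig1, which encodes the sterol-regulated Insig protein and is itself an SREBP target (chromosome 5, 28071363 to 28078662, plus strand, mm10). It was listed at 3414 in cHet_0, 6729 in cHet_1, 958 in cKO_0 and 1262 in cKO_1. The groups did not overlap. Before the log, the cHet libraries lay further from each other than cHet_0 did from cKO_1, while on the log2 scale the reverse held. The log2 fold change, cKO over cHet after adding 3 to each scaled count, was -2.12 (SE 0.56), a level 4.35-fold lower. The unadjusted limma p was 0.00537 and the adjusted p 0.913. With each library left out in turn the fold change ran from -2.61 to -1.63. Insig1 passed the threshold without cHet_0 (limma adjusted p = 0.0317), where cHet_1 was the lone cHet library. Over all 16 settings its adjusted p ran from 0.0317 to 1.0.

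Its relative Insig2, which performs the same retention but is not induced by SREBPs in the same way, was listed at 3565 and 3887 (cHet) against 2939 and 4140 (cKO). The groups overlapped for Insig2, and the log2 fold change was -0.09 (SE 0.41). Within each library the FPKM of Insig1 over that of Insig2 was 0.774 in cHet_0 and 0.887 in cHet_1, and 0.234 in cKO_0 and 0.165 in cKO_1. This ratio was taken after the values had been seen. Both cKO ratios lay below both cHet ratios.

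The promoters of Insig1, of Mvk and of Hmgcs1 are shown because Insig1 and Mvk had the lowest fold changes of the genes with an entry in the RefSeq promoter table, while Hmgcs1, a textbook SREBP target, differed little between the groups. RefSeq (GRCm38.p6) gave promoters for 27 of the 35 genes. Each sequence runs 5′ to 3′ on the plus strand and ends before the annotated start: Insig1 at chr5:28071162-28071362, Mvk at chr5:114444019-114444268 and Hmgcs1 at chr13:119690101-119690350. Capitals mark CCAAT boxes (CCAAT on either strand, so ATTGG too), GC boxes (GGGCGG or CCGCCC) and the sterol regulatory element TCACNCCAC.
Insig1: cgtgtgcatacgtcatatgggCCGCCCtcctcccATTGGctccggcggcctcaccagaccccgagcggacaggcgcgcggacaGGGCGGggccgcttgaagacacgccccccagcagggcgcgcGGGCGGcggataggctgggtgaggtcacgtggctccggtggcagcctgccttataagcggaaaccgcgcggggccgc
Mvk: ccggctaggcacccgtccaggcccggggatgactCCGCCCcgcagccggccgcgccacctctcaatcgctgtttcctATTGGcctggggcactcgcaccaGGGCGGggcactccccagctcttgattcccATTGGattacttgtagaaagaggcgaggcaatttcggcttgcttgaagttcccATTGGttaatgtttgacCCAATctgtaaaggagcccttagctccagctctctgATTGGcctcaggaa
Hmgcs1: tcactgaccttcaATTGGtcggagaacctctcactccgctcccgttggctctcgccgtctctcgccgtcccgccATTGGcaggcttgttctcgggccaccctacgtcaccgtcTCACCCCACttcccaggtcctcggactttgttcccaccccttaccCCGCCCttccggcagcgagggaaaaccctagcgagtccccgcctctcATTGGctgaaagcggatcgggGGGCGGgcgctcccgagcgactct
The Insig1 stretch held 1 CCAAT box and 3 GC boxes, the Mvk stretch 5 and 2, and the Hmgcs1 stretch 3 and 2 with 1 sterol regulatory element. Over the 250 bases before the start, a CCAAT box was found in 19 of the 27 member genes (70.4%) and in 39.5% of 17492 protein-coding genes. A GC box was found in 21 of 27 (77.8%) and in 45.8% of protein-coding genes. The sterol regulatory element in this strict form was found in 1 of 27, Hmgcs1, and in 1.2% of protein-coding genes. The E-box form TCACNTGA was found in 1 of 27, Insig2, and in 4.13%. Motifs were sought on both strands and counted separately where they overlap. These matches are letters in a window of fixed length, and a gene without a match may hold a related element there or elsewhere.

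The other sterol sensing genes had fold changes nearer 0 than Insig1. Srebf2, the main inducer of cholesterol genes, was listed at 16549 and 11492 (cHet) against 12728 and 12974 (cKO). The cKO values lay between the cHet values (log2 fold change -0.10, SE 0.28). Srebf1 (chromosome 11, 60199089 to 60222581) was listed at 11476 and 11812 against 7698 and 10538. Both cKO libraries were lower, but cKO_1 by little, and the log2 fold change of -0.37 (SE 0.28) had an unadjusted limma p of 0.226. Scap was listed at 6496 and 3673 against 6040 and 9697, with overlap and a log2 fold change of 0.65 (SE 0.40). Of the 5 sensing genes, 4 had lower values in cKO and 1 higher. Their median was -0.10 (log2 fold change) beside 0.12 over all genes tested. In FPKM, Srebf2 and Srebf1 were the most abundant of the 5 by mean, at 41.3 and 35.3, and Insig1 the least at 11.2.

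The cholesterol chain is given in the order of its steps. At its entry, the thiolase gene Acat2 overlapped between groups at 2131 and 2886 against 2002 and 2467. The HMG-CoA synthase gene Hmgcs1 (chromosome 13, 119690379 to 119708260) was listed at 10172 and 6175 (cHet) against 5968 and 9672 (cKO). The groups overlapped over nearly their whole range, the log2 fold change was -0.06 (SE 0.38), and the sign changed with the library left out.

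Of the 3 genes from mevalonate to isopentenyl diphosphate, 1 separated. The mevalonate kinase gene Mvk (chromosome 5, 114444269 to 114460591, plus strand) was listed at 1126 and 1163 (cHet) against 430 and 359 (cKO). The values lay close within each group and far apart between groups, and the fold change was -1.54 on the log2 scale, 2.9-fold lower. limma moderates the error of a gene toward that of others of like abundance, and the unadjusted p was 0.199. The next kinase gene, Pmvk, stood at 1375 and 524 against 1746 and 1041, and the decarboxylase gene Mvd at 789 and 867 against 667 and 1597. Both overlapped between the groups, with log2 fold changes of 0.66 (SE 0.91) and 0.32 (SE 0.95).

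From isopentenyl diphosphate to lanosterol and its first demethylation all 6 genes had lower values in cKO, beside 43.7% of all genes tested. Of the 6, 4 separated, beside 14.2%. This stretch was not a group set beforehand: over all 17 cholesterol synthesis genes 58.8% had lower values and 29.4% separated as lower. Idi1, the isomerase gene, stood at 3321 and 3131 against 1531 and 3208, so that cKO_1 reached the cHet level. Fdps, encoding farnesyl diphosphate synthase (chromosome 3, 89093588 to 89101959), stood at 5979 and 4426 against 2097 and 3625. Fdft1, encoding squalene synthase (chromosome 14, 63145150 to 63179578), stood at 5616 and 5562 against 2557 and 3648.
Both cKO libraries were lower for Fdps and Fdft1, with log2 fold changes of -0.90 (SE 0.44) and -0.87 (SE 0.38). Their unadjusted limma p values were 0.0742 and 0.0518. Sqle, encoding squalene epoxidase, a rate-controlling step of the pathway, stood at 7487 and 10331 against 3403 and 7566. The cKO_1 value was just above the lower cHet value in scaled counts, while in FPKM the groups separated. Lss, encoding lanosterol synthase, stood at 2041 and 1861 against 878 and 1564, with a log2 fold change of -0.73 (SE 0.68). Cyp51, encoding lanosterol demethylase, stood at 6152 and 8214 against 4815 and 4411, with a log2 fold change of -0.62 (SE 0.33). In FPKM the groups overlapped for Cyp51. For Idi1, Fdps, Fdft1, Sqle and Lss the lowest value was in cKO_0, and without that library their fold changes were -0.01, -0.50, -0.62, -0.22 and -0.32.

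The late steps, which turn lanosterol derivatives into cholesterol, held no member with both cKO libraries below both cHet libraries. The sterol isomerase gene Ebp (X chromosome, 8185329 to 8193512) was the only one of the 35 with both cKO libraries above both cHet libraries, at 2574 and 2078 against 2886 and 4053 (log2 fold change 0.56, SE 0.46). Tm7sf2, Nsdhl and Sc5d overlapped, with log2 fold changes of 0.23, -1.05 and 0.12. Nsdhl, a dehydrogenase of sterol demethylation, rested on a low cKO_1 value of 317, against 975, 1813 and 1295 in cHet_0, cHet_1 and cKO_0. Over all 17 cholesterol synthesis genes, 10 had lower and 7 higher values in cKO. Their median was -0.16 on the log2 scale beside 0.12 over all genes. Their summed level was 834 and 724 ppm of a library's scaled counts in cHet and 543 and 701 in cKO.

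**Figure D2:**
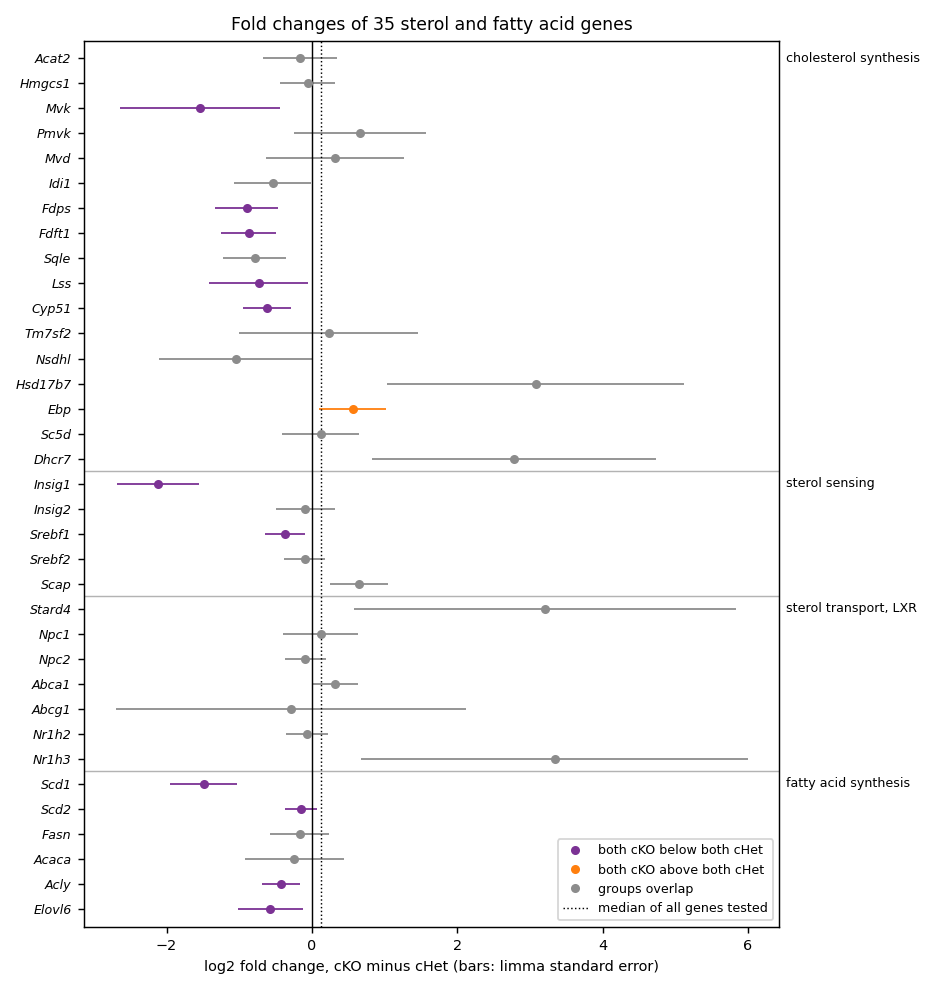
Log2 fold change of each gene (cKO minus cHet, all 4 libraries), with bars for the limma standard error, purple where both cKO libraries were below both cHet libraries, orange where both were above, and grey where the groups overlapped. The dotted line is the median of all genes tested, 0.12. The purple points lie at or below -0.15, and the 4 points near or above 2.78 are genes almost missing from cHet_1.

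All 6 fatty acid synthesis genes had lower values in cKO, beside 43.7% of all genes tested, and 4 of them separated between the groups, beside 14.2%. The largest difference was in Scd1, a stearoyl-CoA desaturase that makes monounsaturated fatty acids and is induced by SREBP1 and liver X receptors (chromosome 19, 44394455 to 44407879, minus strand). Scd1 was listed at 4060 and 4988 (cHet) against 1618 and 1575 (cKO). The groups were far apart and each was tight. The log2 fold change was -1.49 (SE 0.46), 2.82-fold lower, with an unadjusted limma p of 0.0115 and an adjusted p of 0.913. It stayed between -1.64 and -1.34 with each library left out, and over all settings its limma adjusted p ran from 0.0917 to 1.0.

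Scd2, the neighbouring desaturase gene (chromosome 19, 44293674 to 44306864), was listed at 47199 and 43143 against 42440 and 38756. Both cKO libraries were lower by a small margin (log2 fold change -0.15, SE 0.22), and in FPKM the groups overlapped. By mean FPKM Scd2 was the most abundant of the 35 genes at 89.3, where Scd1 was at 6.25. In cHet_1 and cKO_1, however, Nr1h2 ranked above Scd2, at 85.4 and 73.8 FPKM beside 55.9 and 54.3. The FPKM of Scd1 over that of Scd2 was 0.0947 and 0.104 in the cHet libraries and 0.0416 and 0.037 in the cKO libraries. The desaturase genes are close in sequence, and no source used here says how reads were divided between them.

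The remaining fatty acid genes had fold changes nearer 0. Acly, which makes cytosolic acetyl-CoA from citrate, stood at 14616 and 19456 against 12362 and 12751 (log2 fold change -0.43, SE 0.26). Elovl6, an elongase of saturated fatty acids, stood at 3130 and 3625 against 2512 and 2061 (-0.57, SE 0.45). Both separated in scaled counts and overlapped in FPKM. Fasn, fatty acid synthase, stood at 17269 and 8140 against 13106 and 8433. Acaca, acetyl-CoA carboxylase, stood at 2138 and 1269 against 1201 and 1625.
For Fasn and Acaca the spread between the cHet libraries was larger than the difference between the groups. The median log2 fold change of the 6 genes was -0.33, and their summed level was 1270 and 1130 ppm in cHet against 1050 and 922 in cKO. Both cKO libraries were thus below both cHet libraries in the sum as well.

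**Figure D3:**
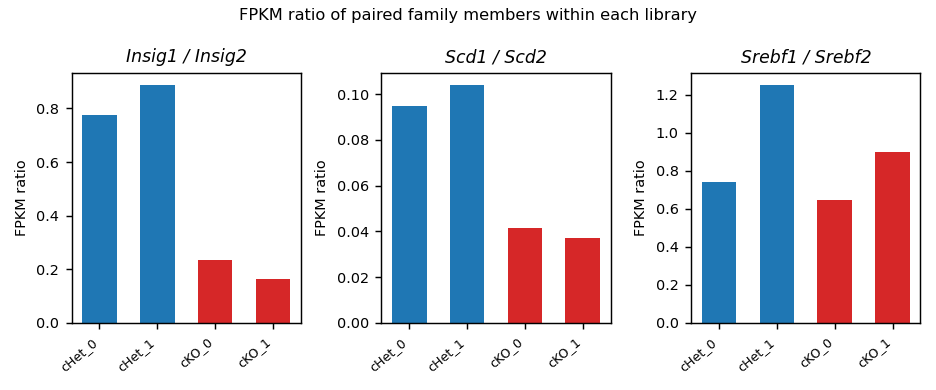
FPKM of Insig1 over Insig2, Scd1 over Scd2 and Srebf1 over Srebf2 within each library, blue for cHet and red for cKO, 1 bar per library. The first ratio, and that of Scd1 over Scd2, is lower in both cKO libraries (0.234 and 0.165 against 0.774 and 0.887 for Insig1 over Insig2), while Srebf1 over Srebf2 overlaps between the groups (0.739 and 1.25 in cHet, 0.647 and 0.897 in cKO).

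The 7 genes of sterol transport and its control showed no separation between the groups. Npc1 and Npc2, which move cholesterol out of lysosomes, stood at 2430 and 1928 against 2730 and 2026, and at 9827 and 12898 against 9904 and 11261. The export pump gene Abca1 (chromosome 4, 53030787 to 53159895), a liver X receptor target, was listed at 6801 and 9603 (cHet) against 11398 and 8981 (cKO). The cKO_1 value was below that of cHet_1, and the log2 fold change was 0.32 (SE 0.31).
Nr1h2, the widely expressed liver X receptor, was among the steadiest members at 7209 and 8054 against 7128 and 7359 (log2 fold change -0.07, SE 0.29). By mean FPKM it ranked second of the 35 genes, at 67.5, with Npc2 at 39.1 and Abca1 at 9.22. Nr1h3, the other liver X receptor, was scarce in 3 libraries at 96.4, 2.09 and 64.6 in cHet_0, cHet_1 and cKO_0, and stood at 763 in cKO_1. The second export pump gene, Abcg1, had 1 low and 1 high library in each group, at 565 and 57.6 against 26.9 and 764. For Nr1h3 and Abcg1 the libraries of a group differed more than the groups did.

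A set of 4 members was almost missing from cHet_1 alone. Hsd17b7, a reductase of demethylation, was listed at 17.8 in cHet_1 and at 2310, 2071 and 1664 in cHet_0, cKO_0 and cKO_1. Dhcr7, a reductase at the end of cholesterol synthesis, was at 24.1 in cHet_1 and at 2314, 1760 and 1683 in the other 3. Stard4, a cytosolic sterol carrier, was at 2.09 in cHet_1 against 966, 529 and 786, and Nr1h3 at 2.09.
Each was under 5% of the lowest of the other 3 libraries, a limit chosen after the values were seen. That held for 11.4% of the 35 members in cHet_1 and for none in the other libraries. Over all genes tested it held for 1856 of 14297 in cHet_1 and for 51, 194 and 179 in cHet_0, cKO_0 and cKO_1. The share of members almost missing from cHet_1 was thus close to that of all genes.

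The fitted fold changes of Hsd17b7, Dhcr7 and Stard4 turned on that library. With all libraries the log2 fold change was 3.08 for Hsd17b7, 2.78 for Dhcr7 and 3.21 for Stard4, with standard errors of 2.04, 1.95 and 2.63. Without cHet_1 they were -0.32, -0.43 and -0.58. Without cHet_0, where cHet_1 was the lone cHet library, all 3 passed the threshold as higher in cKO (limma adjusted p = 0.0145, 0.0165 and 0.0369). Nr1h3 had 3.34 with all libraries, 1.20 without cHet_1 and 1.59 without cKO_1, the library in which it was high.
The separated members were counted again with each library left out, which raises such counts for all genes. Without cHet_0, 16 of the 35 members were lower (45.7%, beside 32.8% of all genes) and 11 higher (31.4% beside 46.7%). Without cHet_1, 20 were lower (57.1% beside 29.0%) and 4 higher (11.4% beside 27.7%). Without cKO_0, 12 were lower (34.3% beside 29.9%) and 6 higher (17.1% beside 34.9%). Without cKO_1, 20 were lower (57.1% beside 26.8%) and 5 higher (14.3% beside 35.6%). The members' share of lower values was thus nearest that of all genes where cKO_0 was left out. In FPKM with all libraries, 8 were lower (22.9% beside 8.73%) and 1 higher (2.86% beside 11.5%).

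**Figure D4:**
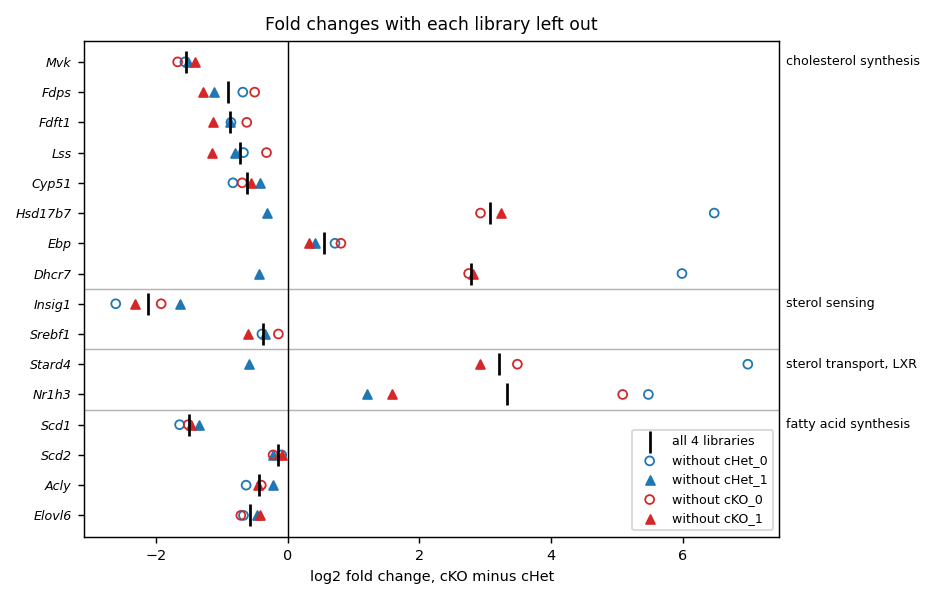
Log2 fold changes (cKO minus cHet) of the 12 members whose groups did not overlap and of the 4 members almost missing from cHet_1, with a black bar for all 4 libraries and 1 symbol for each library left out. Hsd17b7, Dhcr7 and Stard4 move from above 2.7 to below 0 without cHet_1, while Insig1, Mvk and Scd1 stay at or below -1.34.

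Other genes of these pathways were followed through a list of 92 genes, of which 91 were in the tables and 86 were tested. None passed over all genes (limma; 2 higher and 2 lower at an unadjusted p under 0.05), 50 had higher and 36 lower values in cKO, and their median was 0.10 on the log2 scale. Both cKO libraries were below both cHet libraries for 9 of them (10.5%, beside 14.2% of all genes) and above for 12 (14.0%, beside 18.0%), so neither share exceeded that of all genes. Among the 10 further genes of sterol and isoprenoid synthesis 3 had lower and 7 higher values. Scarb1, the receptor for high-density lipoprotein, stood at 5081 and 3881 (cHet) against 9121 and 8046 (cKO) (log2 fold change 0.95, SE 0.32), with the groups well apart.
Rxra, the partner of liver X receptors, stood at 8905 and 5771 against 11658 and 12782 (0.77, SE 0.31). Fads1, a desaturase of polyunsaturated fatty acids, stood at 9382 and 4327 against 10582 and 11618 (0.80, SE 0.39). In the other direction, Sec23a, a coat protein of the vesicles that leave the endoplasmic reticulum, stood at 15041 and 21395 against 11737 and 8711 (-0.83, SE 0.29). Vldlr, a lipoprotein receptor, stood at 11118 and 18805 against 9460 and 7623 (-0.77, SE 0.33). Acsl4, an acyl-CoA synthetase, stood at 1154 and 6076 against 402 and 924, a log2 fold change of -2.11 (SE 0.99) and -0.92 without cHet_1. In FPKM the groups overlapped for Fads1, Sec23a and Vldlr and separated for Scarb1, Rxra and Acsl4.

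Of the 7 oxysterol genes tested, 3 (42.9%) had both cKO libraries above both cHet libraries and 0 below, beside 18.0% and 14.2% of all genes. Cyp46a1 stood at 45.3 and 2.09 (cHet) against 333 and 205 (cKO), and Sult2b1 at 47.8 and 1.05 against 109 and 103. Cyp39a1 stood at 1202 and 301 against 1479 and 1227, and its groups overlapped in FPKM. The lowest value of each was in cHet_1, the library in which many genes were almost missing. The groups overlapped for Apoe, Soat1, Cyp7b1 and Ch25h. Apoe, the lipid-carrying apolipoprotein, stood at 5414 and 7214 (cHet) against 4642 and 13940 (cKO). Soat1, which esterifies cholesterol, stood at 2437 and 1598 against 3515 and 1976. Cyp7b1, an oxysterol hydroxylase, stood at 647 and 2585 against 1117 and 751. Ch25h, which makes an oxysterol, was scarce, at 109, 2.09 and 0.0 in cHet_0, cHet_1 and cKO_0 and 409 in cKO_1.

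Other cells that make much lipid were looked for in the same libraries. Of 13 adipocyte markers, 4 to 6 were at 0 in each library, Plin4, Lep and Retn in all 4, and the list summed to 97.3 to 129 ppm, overlapping between the groups. Among its 6 tested genes, 1 separated as lower in cKO and 1 as higher, beside 14.2% and 18.0% of all genes. These were Pparg, at 676 and 158 against 89.4 and 9.08, and Lipe, at 747 and 410 against 852 and 1883. Lpl was the highest of the list in every library, and its groups overlapped. Adipoq was at 51.7 in cKO_0 and under 1 in the others. Cidec was at 202 in cKO_1 and at no more than 2.15 in the others. Of 14 Schwann cell and myelin markers, 1 was at 0 in cKO_1 and 4 or 5 in the others. The list summed to 382 and 224 ppm in cHet and 438 and 661 in cKO. Of its 8 tested genes, 4 separated as higher in cKO and 0 as lower, beside 18.0% and 14.2% of all genes. The 12 dental epithelium markers summed to 8810 and 21400 ppm in cHet and 14200 and 39000 in cKO, so that the libraries numbered 1 had more in each group.
The 14 dental follicle markers summed to 113000 and 122000 ppm in cHet and to 81000 and 78000 in cKO. Of the 14, 8 separated as lower in cKO and 1, Bicc1, as higher, beside 14.2% and 18.0% of all genes. Pthlh, Aspn, Col3a1, Prrx1 and Tnmd overlapped, with Pthlh at 9253 and 15879 against 12267 and 8613. The follicle sum was lower in both cKO libraries, as were the fatty acid sum, Insig1 and Scd1. That sum rests largely on collagen genes, with Col1a1 at 3673200 and 3370910 against 2122200 and 2099810, so it does not measure the number of follicle cells. Macrophage markers, 11 in all, summed to 26.4 and 108 against 22.6 and 185, and 9 endothelial markers to 35.3 and 89.7 against 55.0 and 161. The endothelial sum overlapped. Of the 8 endothelial genes tested, however, 4 separated as higher in cKO and 0 as lower, beside 18.0% and 14.2% of all genes. The 4 were Pecam1, Cdh5, Cldn5 and Esam, with Pecam1 at 0.0 and 5.23 against 300.0 and 1278. Kdr, Tek, Tie1 and Egfl7 overlapped. Kdr stood at 1900 and 4054 against 1944 and 3145, and Tie1 at 4.05 and 1620 against 4.31 and 2125. Osteoblast and odontoblast markers (9) summed to 2460 and 3960 against 2470 and 2460. In that list 3 of 8 tested genes separated as lower in cKO and 0 as higher, beside 14.2% and 18.0% of all genes. Dspp, of odontoblasts, stood at 27937 and 69633 against 229 and 9251. Phex stood at 2763 and 3653 against 95.9 and 339, and Bglap at 1941 and 1125 against 255 and 326. The other tested genes overlapped: Bglap2, Dmp1, Ibsp, Sp7 and Spp1, with log2 fold changes of -1.75, -2.01, 0.05, 0.03 and 0.62. Dspp, Phex and Bglap thus had lower values in both cKO libraries, as did the 11 separated members, but the list as a whole did not. The markers named here were chosen after their values were seen. Osteoclast markers (6) summed to 173 and 276 against 141 and 237, and pericyte and smooth muscle markers (8) to 1120 and 1190 against 1200 and 1430. The 5 erythroid markers summed to 49.0 and 33.1 against 53.4 and 179. The part of these cells in the levels of the sterol and fatty acid genes was not tested.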

How the data were processed

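RNA from sorted cells was amplified as cDNA with a SMART-Seq v4 kit and made into Nextera XT libraries, per the labels' protocols. The submitters' processing notes name the mm10 build and, in no stated role, DESeq2, HTSeq, Cuffdiff, Cufflinks, Bowtie2 2.2.1, TopHat2 2.0.13 and FastQC. The deposited scaled counts are taken as a signal: reads per gene after the authors scaled each library, so a test on log values was used in place of a count model. The authors also deposited FPKM values, relative to transcript length and library size. Another 16 columns, in 4 tables, have names found in no label and were left out. No source used here says whether strand was used in counting.

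Values were taken as log2(scaled count + 3) and fitted with limma 3.58.1 (R 4.3.3, trended variance) over the 14297 genes with at least 10 in at least 2 libraries, with group as the only term. All 35 members passed this filter. Tests were two-sided, with Benjamini-Hochberg adjustment over all genes and a threshold of 0.05. The scripts were tested on simulated data. No label ties the libraries to separate animals. The p-values therefore cover only the spread between libraries, which may be technical. Fold changes on this scale understate low genes.

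The members, the gene lists and the tests were chosen with earlier results of these data known. All members are described. Values in every library were due for the 3 lowest p in each direction, the 3 highest FPKM of each group of genes, those separated by at least 0.5 (log2) and a fixed set of 8; other members are given after their values were seen. Of the 91 measured related genes the 3 lowest p in each direction and 4 fixed genes are named, and Ptch1, Gli1 and Hhip among the readouts. Cyp46a1, Sult2b1 and Cyp39a1 were added after their values were seen. Gene coordinates are from GENCODE vM21 on the same assembly as mm10, and promoters are RefSeq's. Related genes and markers were matched by symbol or by a unique RefSeq synonym. Alternatives were other scalings, pseudocounts, filters, FPKM, library weights, a block and each library left out. The value of 1 marker gene is not reported here.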

Additional observations from a re-analysis of the deposited data

How the results depend on the processing

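With scaled counts of all 4 libraries, limma called 0 genes in each direction under every filter, pseudocount, scaling and weighting tried. Over all genes it called 3 higher and 4 lower with log2(FPKM + 1), 1 and 1 with log2(FPKM + 0.1), and 0 to 1061 higher and 0 to 78 lower with a library left out, the most without cHet_0. With a library left out, its group's lone library is assumed to vary like the others. Members separated between groups then numbered 12 to 20 lower (26.8% to 32.8% of all genes) and 4 to 11 higher (27.7% to 46.7%), and with FPKM 8 (8.73%) and 1 (11.5%). Members with a higher value numbered 9 to 16, beside 12 with all libraries. With a library left out, medians ran from -0.42 to -0.01 for cholesterol synthesis, -0.35 to -0.09 for sterol sensing, 0.01 to 0.33 for transport, -0.54 to -0.36 for fatty acid synthesis and -0.36 to -0.05 for all members. The cholesterol synthesis median was -0.35 among genes with a mean of at least 1000, where fewer members were tested, and the fatty acid median was -0.44 with median-of-ratios and with TMM scaling. These scalings moved the median of all genes from 0.12 to 0.02 and 0.01. Hmgcs1 was at 0.01 with log2(FPKM + 0.1). Signs changed with a library left out for 17 of the 35 members. Among the genes named by the rule these were Hmgcs1 (-0.42 to 0.30), Hsd17b7 (-0.32 to 6.48), Dhcr7 (-0.43 to 5.99), Srebf2 (-0.36 to 0.16), Npc2 (-0.29 to 0.10), Nr1h2 (-0.15 to 0.01), Fasn (-0.72 to 0.37), and, outside the members, Apoe (-0.43 to 1.16), Ch25h (-2.99 to 4.11) and Cyp7b1 (-1.49 to 0.50). The other 10 members were Acat2, Pmvk, Mvd, Tm7sf2, Sc5d, Insig2, Stard4, Npc1, Abcg1 and Acaca. Of the 35 members, 18 kept their direction under every alternative in which they were tested, 14 lower and 4 higher. The cause of these changes was not tested, beyond the low cHet_1 values of Hsd17b7 and Dhcr7.

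With the library number of the columns as a replicate block, limma called 0 genes higher and 0 lower, and the median over all members was -0.15. Deviations of same-numbered libraries from their group means correlated at 0.0486 across genes, and the labels do not say what a number shares. The 2 libraries a group and the genes missing from cHet_1 limit these results, and the scaled totals do not give the read depth directly.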

Other observations

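The number in the column names went with the authors' length correction. The log2 ratio of scaled count to FPKM, across 8906 genes at 1 FPKM or more in every library, correlated at 0.999 between cHet_0 and cKO_0 and at 0.996 between cHet_1 and cKO_1, against 0.888 to 0.922 for the other pairs. For the cholesterol gene Idi1 the ratio was 182 and 189 in the libraries numbered 0 and 721 and 624 in those numbered 1, for Cyp51 288 and 296 against 913 and 801, and for Mvk 109 and 106 against 86 and 92. FPKM levels of single genes therefore differ between the numbers in ways that scaled counts do not, while each genotype holds 1 library of each number.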
